A study of Mus musculus with 8 samples.

Results

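The spinal cord interneurons of the dorsal neural tube fall into classes named dI1 to dI6 from the roof plate downwards, and 10 transcription factor genes that mark their young neurons were followed here in mouse embryos with and without Prdm12. The dI1 class was represented by Barhl1, Barhl2, Lhx2 and Lhx9, and the dI4, dI5 and dI6 classes by Ptf1a, Lbx1, Pax2, Lmx1b, Dmrt3 and Wt1. The genes were chosen by symbol, and all 10 were present among the 38355 genes of the count tables. All 10 also passed the filter on low counts, as did 16068 genes in all.

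RNA sequencing of total RNA was carried out on thoracic dorsal root ganglia dissected with the adjoining spinal cord from C57Bl6 embryos at stage E11.5. The KO group held 4 libraries from Prdm12-/- embryos, Prdm12 being a PRDM-family regulator of transcription, and the WT group held 4 libraries from wild-type embryos. The labels give no transgene or drug in either group, do not say how the allele was made or which exons it lacks, and do not say whether a library came from 1 embryo or from a pool. The series record speaks of 3 replicates but lists 4 libraries for each genotype, and n = 4 here counts every one of them. The p-values therefore measure the spread between these libraries, which may be technical. Totals lay between 23088908 and 27567399 counts in KO libraries and between 25490087 and 67782435 counts in WT libraries, the deepest being WT replicate 1. Prdm12 itself averaged 1.25 ± 0.329 CPM (counts per gene for every 1000000 counts of the scaled library) in KO and 32.9 ± 7.86 CPM in WT (SD, n = 4 each).

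In the dorsal neural tube each progenitor domain is set by basic helix-loop-helix and homeodomain factors, and each class of postmitotic neuron then switches on its own combination of factors. The dI1 neurons come from Atoh1-expressing progenitors and become excitatory commissural and ipsilateral neurons that carry proprioceptive information towards the cerebellum. The dI4 neurons are inhibitory and the dI5 neurons excitatory; both contribute to the dorsal horn circuits for touch, itch and pain. The dI6 neurons lie just above the ventral V0 class and include commissural inhibitory neurons of the locomotor network. Prdm12 is known from progenitors of the ventral V1 class and from sensory neurons, so these dorsal classes lie outside its best-described spinal domain.

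None of the 10 factors passed the test between KO and WT (edgeR quasi-likelihood F test, Benjamini-Hochberg adjustment over all 16068 genes, threshold 0.05), against 0.299% of all tested genes that did, 0.243% lower and 0.056% higher in KO. At an unadjusted p under 0.05 the count was also 0 of 10, against 6.35% of all tested genes, 3.32% lower and 3.03% higher in KO. DESeq2 and limma-voom likewise called 0 of 10, although each gave Pax2 an unadjusted p under 0.05. In edgeR Pax2 had one with a stricter filter on low counts (unadjusted p = 0.0499, adjusted p = 0.778) and without KO replicate 2 (unadjusted p = 0.0327, adjusted p = 0.806). It also had one without WT replicate 1 (unadjusted p = 0.0023, adjusted p = 0.165), and without that library and KO replicate 4 (unadjusted p = 0.00831, adjusted p = 0.383). Barhl1 had one in edgeR without KO replicate 1 (unadjusted p = 0.00957, adjusted p = 0.526) and without WT replicate 2 (unadjusted p = 0.0168, adjusted p = 0.617). With a replicate block Barhl1 had one too (edgeR unadjusted p = 0.0211, adjusted p = 0.613). The KO and WT libraries overlapped for every one of the 10, whereas the groups were fully apart with KO below WT for 2.45% of tested genes and with KO above WT for 1.69%. Because the tissue was bulk, fewer neurons of a class and less RNA per neuron cannot be told apart.

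The fitted log2 fold changes, KO over WT throughout, ran from −0.39 for Pax2 to 0.71 for Wt1. All 4 dI1 factors and 4 of the 6 dI4 to dI6 factors had a value below 0, as did 51.6% of all tested genes. The median was −0.20 over the dI1 factors and −0.07 over the dI4 to dI6 factors, beside −0.0032 over all tested genes.

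**Figure D1:**
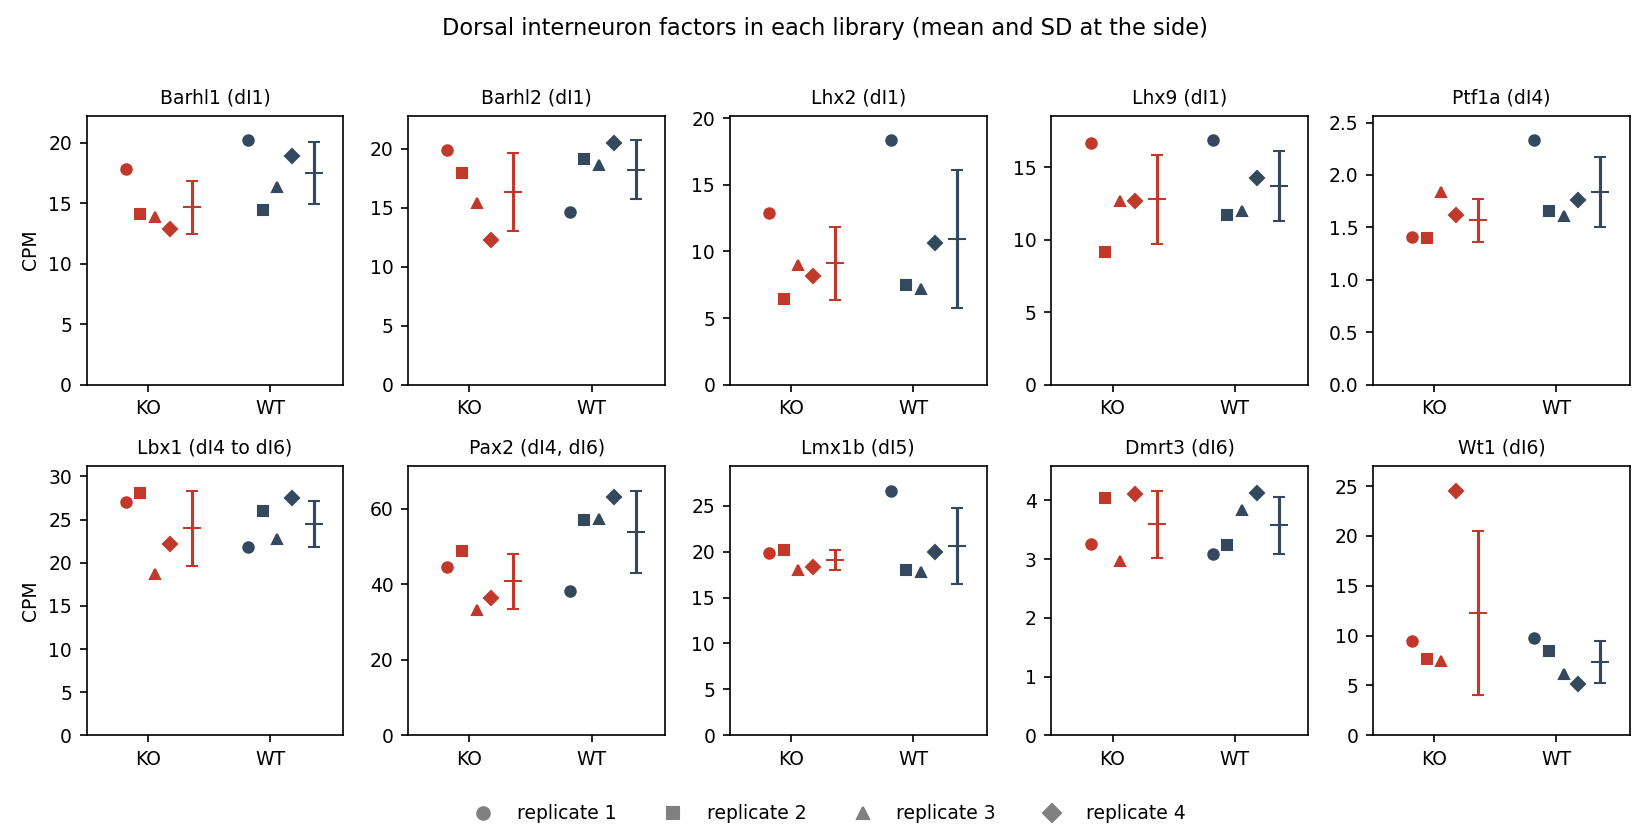
Normalised level (CPM, linear axis from 0) of each factor in the 4 KO libraries (red) and the 4 WT libraries (dark grey), with marker shapes for replicates and the mean ± SD at the side of each group. The groups overlap in every panel; Pax2 is lowest in KO replicate 3 at 33.25 CPM, and Wt1 reaches 24.5 CPM in KO replicate 4.

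The levels themselves differed between factors. Per kilobase of annotated exon, Lbx1 stood at 9.66 ± 1.75 CPM in KO and 9.87 ± 1.08 CPM in WT, and Pax2 at 7.54 ± 1.34 CPM in KO and 9.96 ± 2.01 CPM in WT (SD, n = 4 each). These were the highest of the set, followed by Barhl2 at 7.07 ± 1.43 CPM per kilobase in KO and 7.88 ± 1.09 CPM per kilobase in WT. In both groups Barhl1 and Lmx1b came next, with group means between 3.76 and 4.48 CPM per kilobase, then Lhx2 at 2.07 and 2.49 CPM per kilobase in KO and WT. Dmrt3, Lhx9, Ptf1a and Wt1 stood lowest, with group means between 1.04 and 1.98 CPM per kilobase. The mean ± SD ranges of neighbours in this order overlapped in both groups, except between Barhl2 and the gene below it in both groups and between Barhl1 and Lhx2 in KO. The lengths are the union of all annotated exons, which lowers the value of genes with many isoforms such as Lhx9.

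The dI1 factors are homeodomain proteins. Barhl1 and Barhl2 are Bar-class paralogues switched on downstream of Atoh1, and Lhx2 and Lhx9 are LIM-homeodomain paralogues needed for the commissural axon path of dI1 neurons. Barhl1 (ENSMUSG00000026805, mm10 chromosome 2, 28907679 to 28916668, minus strand) and Lhx2 (ENSMUSG00000000247, chromosome 2, 38339281 to 38369733, plus strand) lie 2.723 and 6.683 Mb from Prdm12 on the same chromosome. Barhl2 (ENSMUSG00000034384) is on chromosome 5, 106452523 to 106458166, and Lhx9 (ENSMUSG00000019230) on chromosome 1, 138825186 to 138848577, both on the minus strand. No 50-base word of any annotated transcript of the 10 genes recurred in another of the 10, so the paralogues can be told apart by reads of that length.

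The 250 bases upstream of the start site of each dI1 factor and of Pax2 are shown, because the dI1 factors share an origin from Atoh1-expressing cells and Pax2 had the largest difference below 0. They are from RefSeq on GRCm38.p6, read 5′ to 3′ on the gene's strand, and where a gene had several windows the one nearest the annotated gene start was taken. The only window of Lhx9 lies inside the annotated gene, upstream of a start site within it. Capitals mark matches on either strand to CAGCTG or CAGATG, forms of the E-box bound by basic helix-loop-helix factors such as Atoh1 and Ptf1a, or to TGGGAA, the core bound by Rbpj, the partner of Ptf1a. No matches overlapped.
Barhl1, chr2:28916669-28916918, minus strand: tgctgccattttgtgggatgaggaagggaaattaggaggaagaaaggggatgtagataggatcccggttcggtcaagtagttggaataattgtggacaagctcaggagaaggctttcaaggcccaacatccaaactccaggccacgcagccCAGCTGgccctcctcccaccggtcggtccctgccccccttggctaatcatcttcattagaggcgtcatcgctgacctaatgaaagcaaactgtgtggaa
Barhl2, chr5:106458167-106458416, minus strand: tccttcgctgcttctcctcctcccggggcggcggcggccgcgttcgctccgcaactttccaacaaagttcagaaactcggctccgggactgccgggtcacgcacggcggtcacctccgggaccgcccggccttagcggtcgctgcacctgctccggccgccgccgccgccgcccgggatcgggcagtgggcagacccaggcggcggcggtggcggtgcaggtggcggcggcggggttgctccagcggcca
Lhx2, chr2:38339031-38339280, plus strand: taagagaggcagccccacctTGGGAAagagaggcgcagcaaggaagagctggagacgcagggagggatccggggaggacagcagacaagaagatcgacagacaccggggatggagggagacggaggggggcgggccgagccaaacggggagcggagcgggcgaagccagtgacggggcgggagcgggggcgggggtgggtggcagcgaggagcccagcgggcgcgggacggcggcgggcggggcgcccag
Lhx9, chr1:138842445-138842694, minus strand: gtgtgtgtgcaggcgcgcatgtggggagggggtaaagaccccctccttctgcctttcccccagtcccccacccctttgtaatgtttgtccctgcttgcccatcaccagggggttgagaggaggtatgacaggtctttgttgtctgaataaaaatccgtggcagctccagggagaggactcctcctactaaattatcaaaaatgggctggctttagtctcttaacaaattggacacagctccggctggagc
Pax2, chr19:44755502-44755751, plus strand: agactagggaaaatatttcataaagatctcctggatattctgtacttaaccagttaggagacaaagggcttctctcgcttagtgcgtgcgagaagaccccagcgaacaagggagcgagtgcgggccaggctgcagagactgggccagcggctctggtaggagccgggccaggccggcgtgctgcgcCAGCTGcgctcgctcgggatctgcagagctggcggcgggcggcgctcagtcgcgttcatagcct

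Barhl1 and Pax2 held 1 CAGCTG each and Lhx2 held 1 TGGGAA, while the windows of Barhl2 and Lhx9 held none of the 3 motifs. Of all 32851 RefSeq windows of that length, 13.0% held CAGCTG, 14.4% CAGATG and 21.6% TGGGAA. A match is a description of the letters only, and the counts measured no binding. The base composition differed within the dI1 set, with 52.8% G and C for Barhl1 and 53.6% for Lhx9, against 74.8% for Barhl2 and 72.8% for Lhx2.

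Barhl1 stood at 17.9, 14.1, 13.9 and 12.9 CPM in KO replicates 1 to 4, and at 20.2, 14.5, 16.35 and 18.9 CPM in WT replicates 1 to 4. KO replicates 2, 3 and 4 lay below every WT library, while KO replicate 1 lay within the WT range. The means were 14.7 ± 2.19 CPM in KO and 17.5 ± 2.58 CPM in WT (SD, n = 4 each; log2 fold change −0.26, SE 0.12, 95% interval −0.53 to 0.017, edgeR adjusted p = 0.813). Barhl2 stood at 19.9, 17.9, 15.4 and 12.2 CPM in KO replicates 1 to 4, and at 14.65, 19.1, 18.6 and 20.5 CPM in WT replicates 1 to 4. Its lowest library was KO replicate 4, but WT replicate 1 was below 3 of the KO libraries. The log2 fold change of Barhl2 was −0.15 (95% interval −0.48 to 0.18, edgeR adjusted p = 0.94), and it was −0.03 without KO replicate 4 and −0.24 without WT replicate 1.

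Lhx2 was the most variable of the dI1 factors. It stood at 12.9, 6.41, 8.997 and 8.13 CPM in KO replicates 1 to 4, and at 18.4, 7.49, 7.21 and 10.7 CPM in WT replicates 1 to 4. WT replicate 1 was far above the other WT libraries, whose levels overlapped those of KO replicates 2 to 4. The log2 fold change was −0.29 with a wide 95% interval of −1.08 to 0.50 (edgeR adjusted p = 0.956), and it was 0.11 without WT replicate 1. Lhx9 stood at 16.7, 9.17, 12.7 and 12.7 CPM in KO replicates 1 to 4, and at 16.9, 11.7, 11.96 and 14.3 CPM in WT replicates 1 to 4. Replicate 1 was the highest library of both groups for Lhx9, and the log2 fold change was −0.10 (95% interval −0.50 to 0.29, edgeR adjusted p = 0.964).

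The dI1 factors shared a pattern between libraries that did not follow genotype. KO replicate 1 was the highest KO library for 4 of 4 dI1 factors, and WT replicate 1 the highest WT library for 3 of 4, the exception being Barhl2. Summed, they came to 67.3 CPM in KO replicate 1 and 45.95 to 50.95 CPM in the other KO libraries, and to 70.1 CPM in WT replicate 1, where WT replicates 2 to 4 gave 52.8 to 64.4 CPM. Atoh1, the factor of dI1 progenitors, was likewise highest in these libraries, at 7.12 CPM in KO replicate 1 and 2.80 to 4.54 CPM in the other KO libraries, and at 10.96 CPM in WT replicate 1, where WT replicates 2 to 4 gave 3.76 to 5.81 CPM. Neural progenitor genes summed to 1090 CPM in KO replicate 1 and to 1015 to 1132 CPM in KO replicates 2 to 4, and to 1374 CPM in WT replicate 1 and 1095 to 1136 CPM in WT replicates 2 to 4. Pan-neuronal genes summed to 2756 CPM in KO replicate 1 and to 2537 to 2869 CPM in KO replicates 2 to 4, and to 2708 CPM in WT replicate 1 and 3028 to 3159 CPM in WT replicates 2 to 4. By these sums WT replicate 1 stood apart in both lists and KO replicate 1 in neither. By mean log2 CPM the progenitor genes were highest in replicate 1 of both groups. They gave 6.212 in KO replicate 1 and 5.957 to 6.03 in KO replicates 2 to 4. In WT they gave 6.435 in replicate 1 and 6.093 to 6.252 in replicates 2 to 4. The part of the 2 lists in the dI1 values was not tested.

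**Figure D2:**
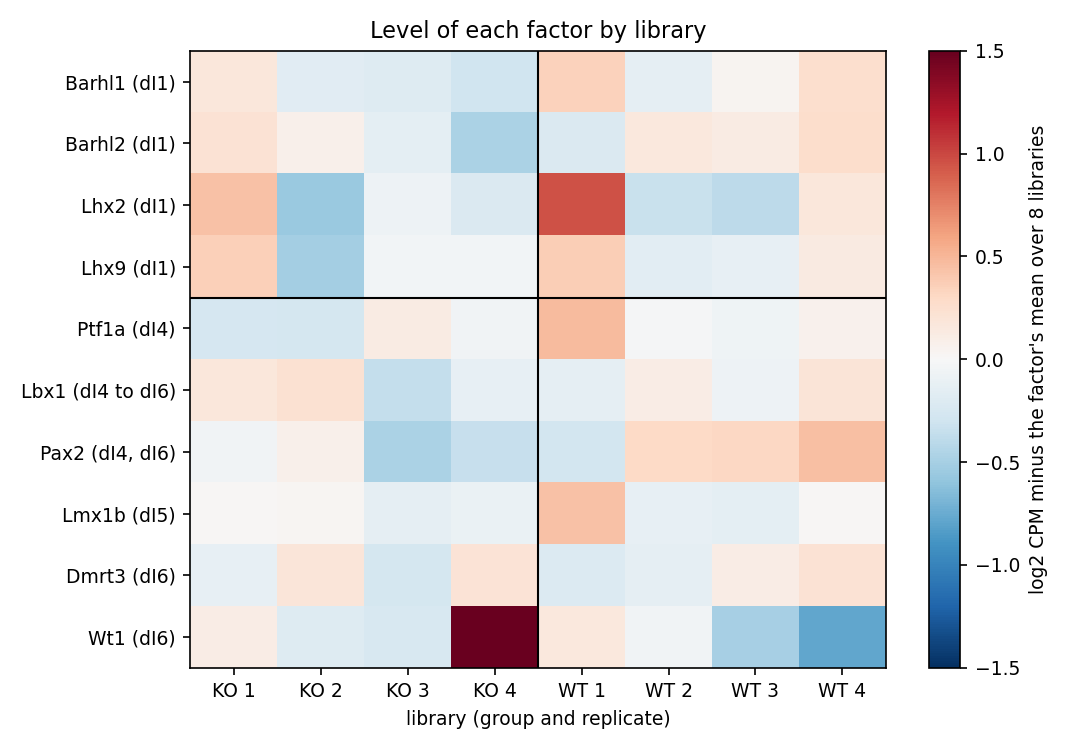
Log2 CPM of each factor in each library minus that factor's mean over the 8 libraries (red above, blue below), KO libraries on the left and dI1 factors on top. Lhx2 in WT replicate 1 (0.96) and Wt1 in KO replicate 4 (1.49) deviate most, and the dI1 rows are red in KO replicate 1.

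Other genes of the dI1 lineage gave 1 call among 4 tested. Cntn2, a contactin of commissural axons that sensory and motor neurons also make, fell in KO, with 261.5 CPM in KO and 353.8 CPM in WT (log2 fold change −0.44, edgeR adjusted p = 0.0133). The call was lost with a muscle and mesenchyme covariate (log2 fold change −0.26, edgeR adjusted p = 1) and on leaving out KO replicate 2, 3 or 4 or WT replicate 3 or 4 (edgeR adjusted p = 0.0511 to 0.0751). Atoh1 averaged 4.74 CPM in KO and 6.18 CPM in WT, with a log2 fold change of −0.42 and an edgeR adjusted p of 0.935, and the log2 fold change was 0.06 without WT replicate 1. Over the 4 genes the median was −0.28 on the log2 scale.

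The dI4 to dI6 factors include proteins of several families. Ptf1a, a helix-loop-helix protein made as dI4 cells are born, sets the inhibitory fate with Rbpj and switches on Pax2. Lbx1, a homeodomain protein, marks all of dI4, dI5 and dI6, Pax2 is a paired-domain factor of the inhibitory dI4 and dI6 neurons, and Lmx1b is a LIM-homeodomain factor of dI5. Dmrt3, of the DM-domain family, and the zinc-finger factor Wt1 mark parts of dI6. Ptf1a (ENSMUSG00000026735, 19445663 to 19447501, plus strand), Lmx1b (ENSMUSG00000038765, 33560965 to 33640511, minus strand) and Wt1 (ENSMUSG00000016458, 105126529 to 105173616, plus strand) are on chromosome 2, at 12.193, 1.905 and 73.471 Mb from Prdm12. Dmrt3 (ENSMUSG00000042372, 25610301 to 25623921, plus strand), Pax2 (ENSMUSG00000004231, 44756045 to 44837871, plus strand) and Lbx1 (ENSMUSG00000025216, 45232684 to 45235812, minus strand) are on chromosome 19. With Barhl1 and Lhx2, 5 of the 10 genes thus share chromosome 2 with Prdm12.

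Ptf1a had the fewest counts of the 10 factors, with 39, 35, 49 and 37 counts in KO replicates 1 to 4 and 157, 45, 41 and 50 counts in WT replicates 1 to 4. That was 1.41, 1.401, 1.84 and 1.62 CPM in KO, against 2.33, 1.66, 1.61 and 1.76 CPM in WT. KO replicates 1 and 2 lay below every WT library and the other KO libraries did not. The log2 fold change was −0.26 (95% interval −0.64 to 0.12, edgeR adjusted p = 0.901) and −0.09 without WT replicate 1. An annotated antisense gene, Ptf1aos, shares 609 exon bases with Ptf1a, and was counted at a mean of 0.00903 CPM in KO and 0 CPM in WT. As the use of strand is not known, reads in the shared bases may be missing from both genes. The Ptf1a counts and level per kilobase may then be too low.

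Lbx1, the broadest marker of these classes, gave 27.0, 28.1, 18.7 and 22.1 CPM in KO replicates 1 to 4, and 21.8, 26.05, 22.7 and 27.5 CPM in WT replicates 1 to 4. The highest and the lowest of the 8 libraries were both KO libraries. The means were 24.0 ± 4.35 CPM in KO and 24.5 ± 2.67 CPM in WT (SD, n = 4 each; log2 fold change −0.03, SE 0.13, 95% interval −0.31 to 0.25, edgeR adjusted p = 0.988).

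Pax2 had the largest difference below 0 among the 10 factors. It stood at 44.7, 48.9, 33.25 and 36.4 CPM in KO replicates 1 to 4, and at 38.2, 57.0, 57.3 and 63.1 CPM in WT replicates 1 to 4. All 4 KO libraries lay below WT replicates 2, 3 and 4, while WT replicate 1 lay among the KO libraries. The means were 40.8 ± 7.23 CPM in KO and 53.9 ± 10.85 CPM in WT (SD, n = 4 each; log2 fold change −0.39, SE 0.18, 95% interval −0.80 to 0.0088, unadjusted p = 0.0541, edgeR adjusted p = 0.796). Without WT replicate 1 the log2 fold change was −0.53 (SE 0.12, 95% interval −0.81 to −0.25, unadjusted p = 0.0023), and still missed the threshold over all genes (edgeR adjusted p = 0.165).

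Set against Lbx1 in the same library, which removes the scaling between libraries, Pax2 had 1.65, 1.74, 1.77 and 1.64 counts per Lbx1 count in KO replicates 1 to 4, and 1.75, 2.19, 2.52 and 2.3 in WT replicates 1 to 4. WT replicate 1 again lay within the KO range and the other WT libraries above it. This ratio was chosen after the values were seen and was not tested.

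Other genes of the inhibitory dI4 lineage were measured beside Pax2. Of 14 tested, 0 passed in either direction and 13 had a log2 fold change below 0, with a median of −0.14. Pax8, a paralogue of Pax2 in the same inhibitory neurons, averaged 16.1 CPM in KO and 23.4 CPM in WT (log2 fold change −0.53, edgeR adjusted p = 0.731), and it too had a WT replicate 1 level, 15.4 CPM, within the KO range of 13.25 to 20.4 CPM. The homeobox gene Gbx2 had a log2 fold change of −0.29 with the groups apart (edgeR adjusted p = 0.533).

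Lmx1b, which the roof plate also expresses, gave 19.9, 20.2, 17.99 and 18.4 CPM in KO replicates 1 to 4, and 26.6, 18.04, 17.8 and 19.9 CPM in WT replicates 1 to 4. Only WT replicate 1 stood outside a narrow band shared by both groups. The log2 fold change was −0.12 (95% interval −0.39 to 0.15, edgeR adjusted p = 0.941), and 0.05 without WT replicate 1 (95% interval −0.11 to 0.20). Among 7 other dI5 genes 1 fell, Pou4f1, which sensory neurons express strongly (log2 fold change −0.52, edgeR adjusted p = 0.0188). With the covariate the log2 fold change of Pou4f1 was still −0.52, but its call was lost (edgeR adjusted p = 0.823). The call was also lost without any 1 library other than WT replicate 1 (edgeR adjusted p = 0.0551 to 0.0871). Drgx, a homeobox gene of dI3 and dI5 neurons and of nociceptive sensory neurons, had a log2 fold change of −0.60 with the groups apart (edgeR adjusted p = 0.156), and passed without WT replicate 1 (edgeR adjusted p = 0.0212) and in limma-voom (adjusted p = 0.0262). Ganglia and cord were not separated, so a value of either gene cannot be assigned to dI5 neurons. Of 7 roof plate genes, 0 passed, with summed levels of 42.45 to 54.7 CPM in KO and 50.9 to 60.4 CPM in WT. The sum was highest in KO replicate 1 and in WT replicate 1.

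Dmrt3 was low and even across genotypes. It gave 3.25, 4.04, 2.96 and 4.11 CPM in KO replicates 1 to 4, and 3.09, 3.25, 3.84 and 4.12 CPM in WT replicates 1 to 4. The means of 3.59 ± 0.573 CPM in KO and 3.575 ± 0.487 CPM in WT (SD, n = 4 each) gave a log2 fold change of 0.01 (95% interval −0.31 to 0.34, edgeR adjusted p = 0.999).

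Wt1 had the largest difference above 0, and it rested on 1 library. It gave 9.43, 7.65, 7.42 and 24.5 CPM in KO replicates 1 to 4, and 9.76, 8.45, 6.19 and 5.11 CPM in WT replicates 1 to 4. Apart from KO replicate 4, the KO libraries lay within the WT range. The means were 12.3 ± 8.23 CPM in KO and 7.38 ± 2.11 CPM in WT (SD, n = 4 each; log2 fold change 0.71, SE 0.44, 95% interval −0.33 to 1.74, edgeR adjusted p = 0.892). Without KO replicate 4 the log2 fold change was 0.13 (95% interval −0.36 to 0.62, edgeR adjusted p = 0.946).

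Wt1 is also a gene of the mesothelium and the developing kidney, and some genes of those tissues were highest in KO replicate 4. Upk3b, a mesothelial gene, stood at 0.108, 0, 0.1125 and 5.77 CPM in KO replicates 1 to 4, and at 2.302, 0.0369, 0.0784 and 0.0704 CPM in WT replicates 1 to 4. Cdh16, a cadherin of kidney epithelium, stood at 3.15 CPM in KO replicate 4 and at most at 0.253 CPM in any other KO library, against 0 to 0.176 CPM in WT. The summed level of the 8 nephric and mesothelial genes ran from 85.9 to 126.4 CPM in KO and from 95.3 to 98.2 CPM in WT, with KO replicate 4 the highest; Pax8 counts in this list as well as among the inhibitory genes. These levels stand beside the Wt1 values of KO replicate 4 and WT replicate 1, which were the highest of their groups. In WT replicate 1 Upk3b stood apart, but Cdh16, at 0.0446 CPM, did not. The sum there was 98.2 CPM, against 95.3 to 97.55 CPM in WT replicates 2 to 4. The part of these genes in the Wt1 difference was not tested. Pax2, which nephric cells also express, was not high in KO replicate 4.

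**Figure D3:**
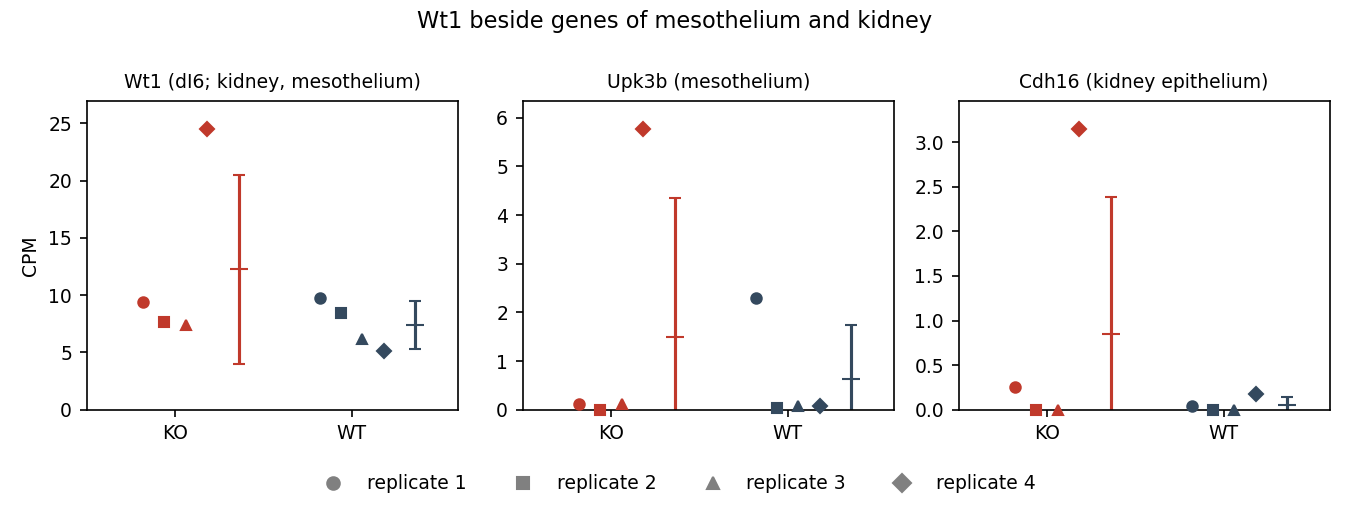
CPM (linear axes from 0) of Wt1, the mesothelial gene Upk3b and the kidney gene Cdh16 in the 4 KO libraries (red) and the 4 WT libraries (dark grey), with marker shapes for replicates and mean ± SD at the side, bars ending at the axis where they would pass below 0. KO replicate 4 is the highest library in all 3 panels, at 24.5, 5.77 and 3.15 CPM.

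Among 5 other dI6 genes 0 passed, with a median log2 fold change of −0.12. Bhlhe22, a helix-loop-helix factor of dI6 and other classes, had the smallest p, with 15.0 CPM in KO and 17.1 CPM in WT (log2 fold change −0.19, edgeR adjusted p = 0.731). The V0 genes Evx2 and Evx1 of the class just below dI6 had log2 fold changes of 0.74 and 0.84 with the groups apart, but did not pass (edgeR adjusted p = 0.0713 and 0.233). Without WT replicate 1 both passed, at 0.91 for Evx2 (edgeR adjusted p = 0.00283) and 1.12 for Evx1 (edgeR adjusted p = 0.00131), as they did in DESeq2 and limma-voom. Between dI1 and dI4, 3 of 9 tested dI2 and dI3 genes fell, Foxd3, Neurog1 and Pou4f1, and 0 rose, with a median of −0.48. All 3 calls were lost with the covariate (edgeR adjusted p = 0.708 to 0.908). The log2 fold changes of Foxd3, Neurog1 and Pou4f1 were −0.64, −0.44 and −0.52 with it, and −0.57, −0.48 and −0.52 without it. The covariate did not overlap between the groups, so that fit cannot fully separate it from genotype. The calls of Foxd3 and Pou4f1 were also lost without any 1 library other than WT replicate 1 (edgeR adjusted p = 0.0517 to 0.139). That of Neurog1 was lost without KO replicate 3 or 4 or WT replicate 3 or 4 (edgeR adjusted p = 0.0701 to 0.0874). Foxd3, Neurog1 and Pou4f1 are also genes of the neural crest or sensory lineage of the ganglia.

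**Figure D4:**
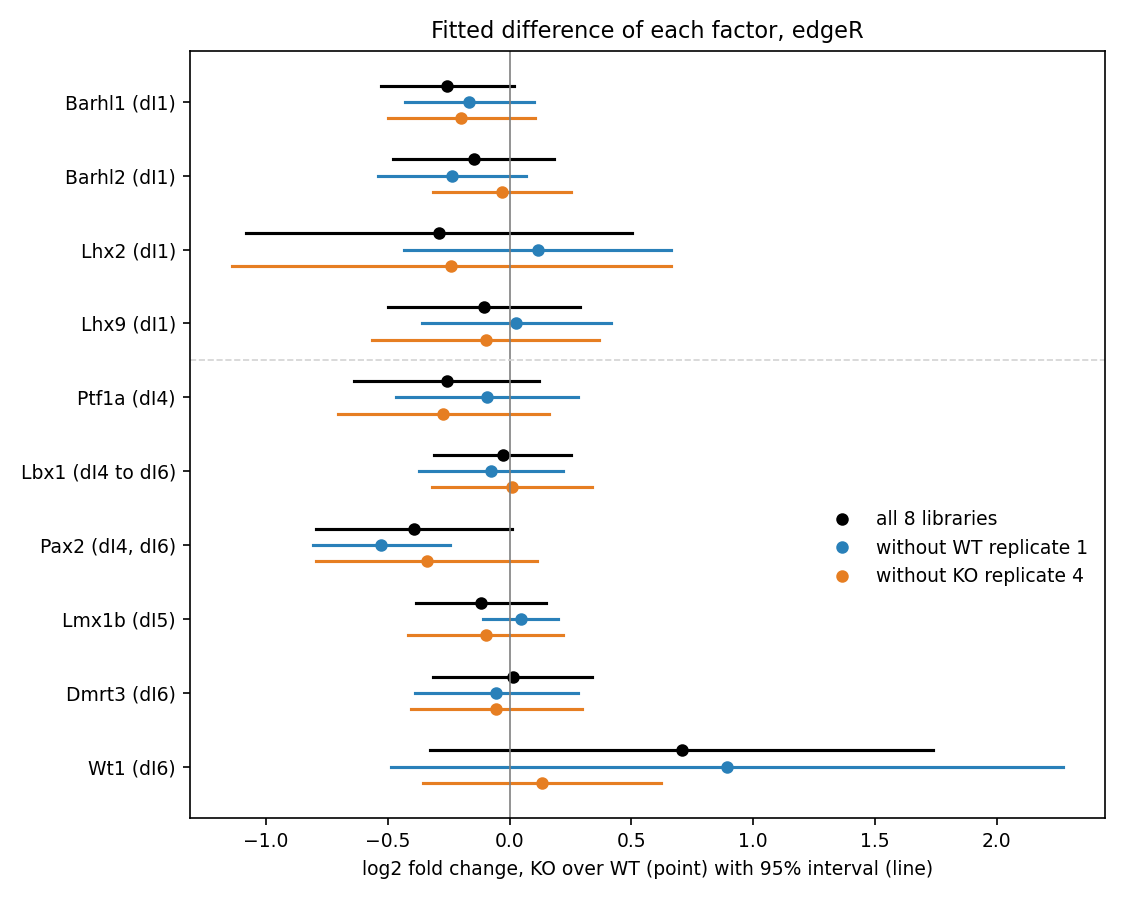
Fitted log2 fold change (KO over WT, point) with its 95% interval (line) for each factor from edgeR, with all 8 libraries (black), without WT replicate 1 (blue) and without KO replicate 4 (orange). The interval spans 0 for every factor with all libraries; without WT replicate 1 that of Pax2 runs from −0.81 to −0.25, and without KO replicate 4 the Wt1 value lies at 0.13.

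Lists of neural and surrounding tissue were measured beside the 10 factors. Pan-neuronal genes (median log2 fold change −0.16, 6 of 6 below 0) and neural progenitor genes (median −0.20, 6 of 6 below 0) had medians below 0, and muscle and mesenchyme genes a median above 0 (0.22, 14 of 16 above 0), with 0 passing in any of the 3 lists. The muscle and mesenchyme genes summed to 2952 to 3210 CPM in KO and 2277 to 2935 CPM in WT, with no overlap. With their mean log2 level as a covariate the median of the dI1 factors was 0.27 and that of the dI4 to dI6 factors −0.10, with 0 of 10 called. That level ran from 6.334 to 6.554 in KO and from 6.178 to 6.326 in WT. It did not overlap between the groups, so this fit cannot fully separate it from genotype. Markers of brain regions anterior to the cord, where several of the 10 factors are also used, were under 1 CPM in every library for 5 of 5 genes. They summed to 0.90 to 1.44 CPM in KO and 0.52 to 0.67 CPM in WT, with no overlap. En2, the 1 gene of this list that could be tested, had a log2 fold change of 1.03 and did not pass (edgeR adjusted p = 0.623). Limb mesenchyme genes, from a tissue where Lhx2, Lhx9 and Lmx1b are also used, had 0 of 6 called. They summed to 208.4 to 227.5 CPM in KO and 189.4 to 233.5 CPM in WT. The sum was highest in KO replicate 1, with KO replicate 4 close at 225.6 CPM, and in WT replicate 1. Lhx2 and Lhx9 were also highest in replicate 1 of each group, and the part of limb tissue in their values was not tested. Of 3 pancreatic genes, listed because Ptf1a is also used there, 1 could be tested and 0 were called.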

How the data were processed

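The authors deposited 1 table per library of whole-number read counts per gene. The submitters' processing notes name featureCounts 1.4.6-p1, STAR 2.3.0e, DESeq2 1.8.2, SAMtools 0.1.18 and FastQC 0.10.1, and build mm10. The annotation release and the use of strand are not given in any source used here, so sense and antisense reads cannot be told apart. The 5 summary rows held 0 counts and were left out. GENCODE M21 on GRCm38 gave symbols, places and exon lengths and matched 36602 of 38355 identifiers; Drgx is Prrxl1 there.

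Counts were analysed in edgeR 4.0.16 (R 4.3.3) after filterByExpr, with TMM scaling (factors 0.991 to 1.01) and a robust quasi-likelihood F test on group. P-values were adjusted by Benjamini-Hochberg over the 16068 genes kept. CPM use the TMM-adjusted totals. The SE is the log2 fold change over the square root of F, and 95% intervals use the degrees of freedom of the fit. No pair of libraries of 1 group agreed within sampling noise.

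The 10 genes and the lists were chosen with earlier results of these data known. All 10 are named with values, and from each list at most the 2 tested genes with the smallest p and any that passed. Upk3b and Cdh16, below the filter, were chosen after their values were seen. Other scalings, filters, DESeq2 1.42.0, limma-voom (limma 3.58.1), a replicate block, a muscle and mesenchyme covariate, a thinned WT replicate 1 and the omission of each library were tried. Omitting WT replicate 1 and KO replicate 4 together was added after the data were seen. Plots used matplotlib 3.10.9.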

Additional observations from a re-analysis of the deposited data

Results flagged for a closer look

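Wt1 in KO replicate 4 stood far from the other libraries of its group, with 24.5 CPM where KO replicates 1 to 3 had 7.42 to 9.43 CPM. The gap to the nearest library was 0.883 of the range of the group. It was the 1 library that stood apart in this way among 20 groups of 4 examined, and chance alone gives about 1 in 20. The mesothelial gene Upk3b and the kidney gene Cdh16 were highest in the same library, at 5.77 and 3.15 CPM, and their part in the Wt1 value was not tested.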

How the results depend on the processing

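In every alternative 0 of the 10 factors was called, and Barhl1, Barhl2, Ptf1a and Pax2 stayed below 0 in each, except Barhl1 and Barhl2 with the muscle and mesenchyme covariate. That covariate gave log2 fold changes of 0.20 for Barhl1, 0.080 for Barhl2, 0.73 for Lhx2, 0.35 for Lhx9, 0.12 for Lbx1, 0.22 for Lmx1b, −0.16 for Dmrt3, −0.089 for Wt1 and 0.69 for Atoh1, a dI1 median of 0.27, and 0 higher and 1 lower gene among all genes. Limma-voom gave 0.14 for Lhx2, 0.070 for Lhx9, 0.0041 for Lmx1b, −0.14 for Dmrt3 and 0.073 for Atoh1. Dmrt3 was −0.0035 with WT replicate 1 thinned. Without WT replicate 1 and KO replicate 4 the values were 0.16 for Lhx2, 0.033 for Lhx9, 0.063 for Lmx1b, −0.12 for Dmrt3 and 0.083 for Atoh1. The cause of these turns was not tested, and all these values missed the threshold.

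With each library left out in turn, log2 fold changes ran from −0.50 to 0.11 for Lhx2, −0.26 to 0.027 for Lhx9, −0.18 to 0.046 for Lmx1b, −0.11 to 0.079 for Lbx1, −0.055 to 0.10 for Dmrt3, −0.26 to −0.030 for Barhl2 and −0.68 to 0.059 for Atoh1. The dI1 median ran from −0.31 without KO replicate 1 to −0.07 without WT replicate 1, and the dI4 to dI6 median from −0.13 without KO replicate 2 to −0.0034 without KO replicate 3. Over all genes, leaving out 1 library gave 3 to 21 higher and 12 to 112 lower genes, against 9 and 39 with all libraries. The highest counts, 21 and 112, were those without WT replicate 1, and leaving out any other library gave 3 to 5 higher and 12 to 27 lower genes. The higher and lower counts were 22 and 81 with DESeq2, 20 and 95 with limma-voom, and 21 and 91 without WT replicate 1 and KO replicate 4. With no filter they were 13 and 58.

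The replicate block gave 2 higher and 14 lower genes and 0 of 10 factors, with Barhl1 at an unadjusted p of 0.0211 and an edgeR adjusted p of 0.613. Under it Foxd3, Neurog1 and Pou4f1 missed the threshold (edgeR adjusted p = 0.099, 0.0536 and 0.105). Deviations of same-numbered libraries correlated over genes at −0.108, 0.282, −0.187 and −0.00658 for replicates 1 to 4. Over all genes the numbers thus showed no common pairing, which does not exclude one for single genes. The block lowered the SE of Lhx2 from 0.34 to 0.13 and of Lhx9 from 0.18 to 0.085. It raised the SE of Barhl2, Ptf1a, Pax2 and Wt1. Depth limits Ptf1a most, with 35 to 49 counts in KO libraries.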

Other observations

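The ratio of the paralogues of the dI1 class stood apart in WT replicate 1, the deepest library. Lhx2 had 0.771, 0.699, 0.710 and 0.641 counts per Lhx9 count in KO replicates 1 to 4, and 1.09, 0.640, 0.603 and 0.748 in WT replicates 1 to 4. Barhl1 had 0.900, 0.786, 0.900 and 1.05 counts per Barhl2 count in KO replicates 1 to 4, and 1.38, 0.757, 0.878 and 0.921 in WT replicates 1 to 4. WT replicate 1 was the highest library for both ratios. These ratios were chosen after the values were seen and were not tested.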
